A study of Homo sapiens with 27 samples.

Results

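The 67 genes described here had at least 4-fold less RNA after lipopolysaccharide (LPS) and about the same RNA when dexamethasone was given with it. They were chosen from RNA-seq alone, among 20453 counted genes. The mean level with LPS had to be at most 0.25 of that with vehicle, and the mean with LPS and dexamethasone 0.77 to 1.3 of that with LPS alone. Means were in CPM, meaning counts scaled to a library of 1 M after TMM adjustment of its size, with 0.5 added, and the vehicle mean had to reach 5 CPM. In all, 142 genes were lowered that far. Of these, 56 lay above the upper dexamethasone bound, 14 lay below the lower one, and 5 within the bounds were left out by symbol because they belong to families treated apart. Since RNA chose the members, their RNA values are given without a test, and the tests below are on ribosome footprints, which the choice did not use.

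The cells were THP-1, an established human line from a monocytic leukaemia, brought to a macrophage-like state by 24 h in 10 ng/ml PMA, a phorbol ester. A tumour line such as this is a limited model of primary macrophages. The cells then received vehicle (ethanol in PBS), 100 ng/ml LPS, or the same LPS with 1 µM dexamethasone (LPS+Dex), for 3 h. All 3 groups had therefore been exposed to PMA, and none received dexamethasone alone. Poly(A) RNA-seq has 4 libraries per treatment and ribosome profiling has 5. Per the labels, RNA was taken from the same cells as the footprints, so a fall seen in both assays was measured on shared material and is not seen in independent cells.

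LPS, a component of the outer membrane of Gram-negative bacteria, binds Toll-like receptor 4 and switches macrophages to an inflammatory programme through NF-κB, AP-1 and interferon regulatory factors. Many genes of the resting macrophage are turned down in the same hours. Dexamethasone activates the glucocorticoid receptor, a transcription factor that represses many inflammatory genes and induces others. Ribosome profiling sequences the stretches of mRNA covered by ribosomes, so a gene's footprints follow both how much of its mRNA is present and how heavily that mRNA is translated.

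RNA libraries held 19 to 30.7 M counts and footprint libraries 11.5 to 26.1 M. Of 15 macrophage markers, 14 had a mean above 1 CPM in RNA. Their summed RNA level was 7903 to 8422 CPM with vehicle and 6477 to 7018 CPM with LPS. In these bulk samples fewer cells of a kind and less RNA per cell cannot be told apart. Summed T cell markers stayed at or under 0.271 CPM in every RNA library, with CD3G and TRAT1 at 0 throughout. Summed B cell, epithelial and erythroid markers stayed at or under 1.68, 0.449 and 0.216 CPM. The 4 fibroblast markers summed to 5.58 to 8.17 CPM with vehicle, 7.52 to 11.03 CPM with LPS and 22.2 to 26.5 CPM with LPS+Dex. Most of that was COL1A1, at a mean of 5.90, 8.54 and 24.1 CPM, while COL1A2, DCN and LUM had RNA group means at or under 0.589 CPM. The part of these RNAs in the results was not tested. Vehicle RNA libraries fell into 2 pairs, 1 with 2 and 3 with 4. The chi-square per degree of freedom of their counts was 11.8 and 13.8 within the pairs and 30.3 to 81.6 across them. In 29 members vehicle libraries 1 and 2 were both below 3 and 4, and in 16 both were above. The shares of all genes split in these ways were not counted. The footprint libraries numbered 4 stood apart from the other 4 libraries of their treatment. The same chi-square measure was 147 to 357 for footprint pairs with library 4 and 3.91 to 23.1 for the other pairs. In 21 members library 4 was the highest in all 3 treatments, and in 9 it was at least 2 times the mean of the others in all 3. These shares were not counted over all genes, so they are not shown to be particular to the members. Counts of calls are also given without the libraries numbered 4. The cause of that difference was not tested.

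All 67 members had every LPS library below every vehicle library in RNA, against 28.4% of all 13327 genes tested. That separation follows from the choice. With LPS+Dex, the libraries overlapped those with LPS in 60 of the 67. The dexamethasone bounds of the choice favour such overlap, and its share over all genes was not counted. Just inside the LPS bound were MYBPH, ZMYM3 and RTKN with LPS/vehicle ratios of 0.248, 0.245 and 0.245. Just outside were HDAC5 at 0.2504, UBASH3B at 0.252 and FAT2 at 0.253. At the upper dexamethasone bound, SIGLEC16 (LPS+Dex/LPS ratio 1.2995), PDK2 (1.296) and IQSEC2 (1.29) were kept and FAM135B, INPP5D and TUBA1A, each at 1.32, were not. At the lower one EPHB3, FRMD4A and TMEM86A, at 0.791, 0.791 and 0.795, were kept, and SORL1 (0.738) and EFR3B (0.731) were among those left out. CORO2A at 5.5 CPM, KIF25 at 5.75 CPM and SP140 at 5.75 CPM were the members nearest the vehicle level bound, below which lay C11orf21 at 4.97 CPM.

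The fall in RNA was carried into footprints for nearly the whole set. Of the 66 members tested in footprints, 63 were lower with LPS than with vehicle and none was higher, where 27.2% of all 12197 genes tested were lower and 25.4% were higher (edgeR's quasi-likelihood test, adjusted p under 0.05). The members' median footprint change was -2.50 on the log2 scale, from -3.77 to -0.67, and that of all genes was -0.04. A footprint fall of at least 4-fold was found in 49 members and in 2.50% of all genes. KIF25 was not tested, having 32 footprint counts over the 5 vehicle libraries. A gene can pass the filter on low counts through its vehicle libraries alone, but 61 of the tested members had 10 counts in at least 5 of the libraries with LPS or LPS+Dex, and 60 of those were lower. Every LPS footprint library lay below every vehicle one in 58 of the 67 members, against 18.6% of all genes. Without the libraries numbered 4, 65 members and 36.0% of all genes were lower, and the members' median was -2.61.

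**Figure D1:**
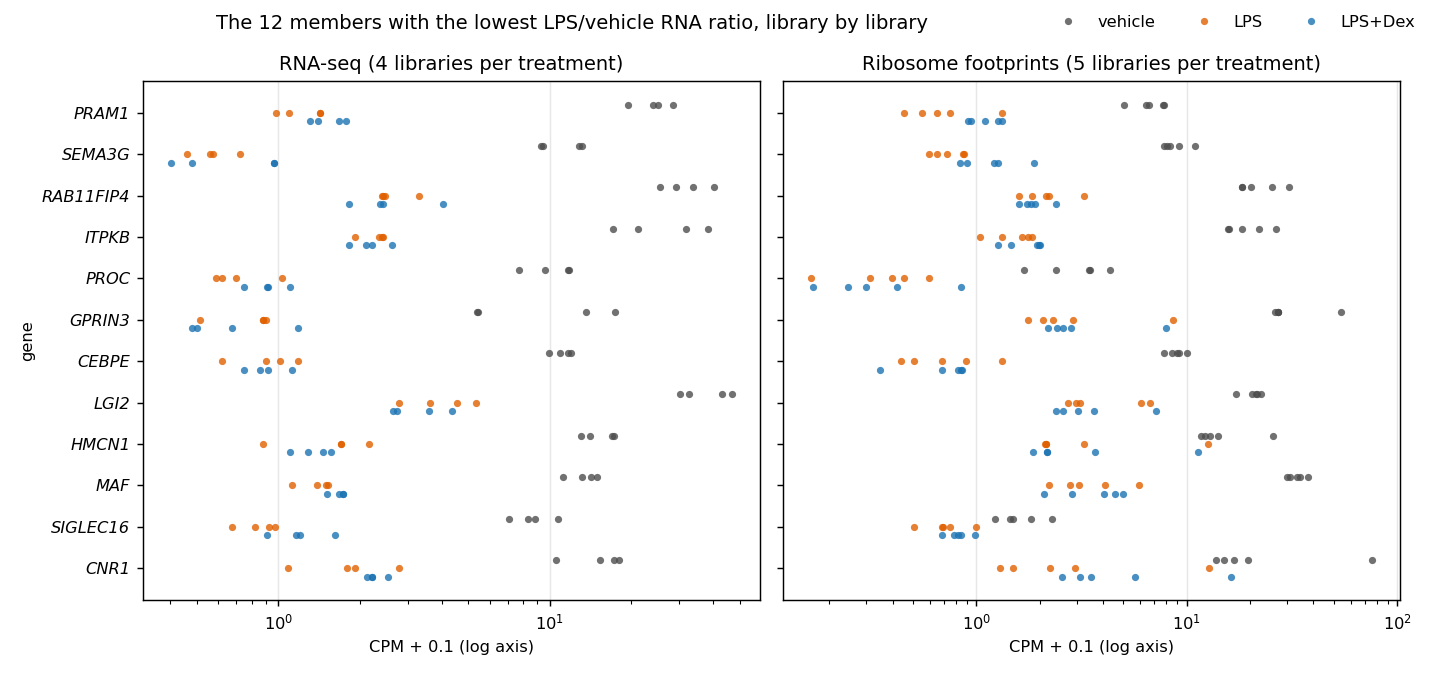
CPM + 0.1 on a log axis for the 12 members with the lowest LPS/vehicle RNA ratio, with 1 point per library and 3 treatments, RNA-seq on the left (4 libraries per treatment) and ribosome footprints on the right (5 per treatment). In RNA the vehicle points stand clear of both treated groups because the genes were chosen for it. In footprints, which were not used in the choice, the same order is seen except where the high point of LPS or LPS+Dex, library 4 of HMCN1 or CNR1, lies near or in the vehicle range.

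Transcription factors and chromatin proteins are encoded by 10 members (RNA 4.07- to 8.67-fold lower), and 9 of them fell in footprints. MAF (ENSG00000178573, chr16:79202622-79600737 on GRCh38) is a basic leucine zipper factor of macrophages that drives IL10 among other genes. Its RNA was 11.1, 13.0, 14.8 and 14.1 CPM in the 4 vehicle libraries and 1.02, 1.40, 1.28 and 1.43 CPM with LPS. With LPS+Dex it was 1.41, 1.63, 1.57 and 1.62 CPM. Both treated groups lay far below vehicle and overlapped each other. Footprints of MAF were 34.5, 29.9, 33.3, 30.9 and 37.8 CPM with vehicle, 2.98, 2.68, 2.12, 5.81 and 3.97 CPM with LPS and 2.0, 3.95, 2.73, 4.90 and 4.44 CPM with LPS+Dex. Every LPS library lay far below the lowest vehicle one, and the change with LPS was -3.25 ± 0.27 (SE) on the log2 scale (adjusted p = 1.12e-07).

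CEBPE (ENSG00000092067, chr14:23117306-23119255) encodes C/EBPε, a factor of terminal granulocyte differentiation. Its RNA was 11.9, 11.6, 9.86 and 10.8 CPM with vehicle, 0.798, 1.09, 0.917 and 0.519 CPM with LPS and 0.757, 0.814, 1.03 and 0.650 CPM with LPS+Dex. In footprints it stood at 9.90, 8.36, 8.89, 9.08 and 7.73 CPM, 0.340, 0.795, 0.405, 1.23 and 0.589 CPM and 0.721, 0.759, 0.249, 0.748 and 0.585 CPM in the same order. The LPS and LPS+Dex libraries overlapped, and the lowest vehicle library was above all of them. The footprint change with LPS was -3.74 ± 0.29 (SE) (adjusted p = 5.57e-08), and that of LPS+Dex against LPS was -0.04 ± 0.33 (SE) (adjusted p = 0.973).

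The promoters of MAF and CEBPE are shown because these factors had the largest RNA and footprint falls of the group. Each runs from 250 bases before the RefSeq transcription start to 50 after it, on the minus strand of GRCh38.p14. MAF is at chr16:79600688-79600987, with the capitals marking a CREB motif (TGACGTCA) and a TATA box (TATAAA). CEBPE is at chr14:23119206-23119505, with an AP-1 motif (TGANTCA) in capitals.
MAF: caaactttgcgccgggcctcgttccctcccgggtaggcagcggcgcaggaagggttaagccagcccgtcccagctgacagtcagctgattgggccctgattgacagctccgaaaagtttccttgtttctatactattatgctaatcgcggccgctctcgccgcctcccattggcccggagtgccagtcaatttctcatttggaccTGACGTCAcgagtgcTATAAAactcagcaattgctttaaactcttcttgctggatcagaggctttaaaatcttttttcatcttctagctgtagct
CEBPE: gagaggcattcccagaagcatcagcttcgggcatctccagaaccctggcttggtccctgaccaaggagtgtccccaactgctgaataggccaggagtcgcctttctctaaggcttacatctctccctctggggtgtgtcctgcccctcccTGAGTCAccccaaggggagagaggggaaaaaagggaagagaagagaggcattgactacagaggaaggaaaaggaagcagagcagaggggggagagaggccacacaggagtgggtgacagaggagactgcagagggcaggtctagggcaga
Such letters are a description of these windows. The CREB motif stands in 2 of 54 members with a promoter sequence, MAF and TMEM86A, and the TATA box in 4.

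Among the other nuclear proteins, the footprint change with LPS was -2.97 for LYL1, a blood-forming helix-loop-helix factor, and -2.53 for RXRA, the partner of many nuclear receptors. RREB1, a zinc finger factor of RAS signalling, changed by -2.54, DMRT2 by -2.47 and ZMYM3, a zinc finger chromatin protein, by -2.42. MRTFB, a coactivator of serum response factor, changed by -2.11. NFATC1, the calcineurin-regulated factor, was among the members with the most RNA counts, with 134, 123, 123 and 123 CPM with vehicle and 27.5, 29.0, 31.0 and 30.5 CPM with LPS. Its footprints were 85.8, 72.9, 76.9, 36.8 and 75.9 CPM with vehicle and 17.5, 17.4, 18.1, 25.2 and 20.7 CPM with LPS, where the low vehicle value is library 4, and the change was -1.81 ± 0.18 (SE) (adjusted p = 9.67e-07). SP140, a bromodomain protein of the SP100 family, is the member of this group whose footprints were not called lower. It had only 0.472, 0.404, 0.452, 0.757 and 0.738 footprint CPM with vehicle and 0.128, 0.0497, 0.360, 0.194 and 0.472 CPM with LPS, groups that overlapped, with a change of -1.15 ± 0.54 (SE) (adjusted p = 0.0887). Without LPS library 5 the change of SP140 was -1.57 and was called.

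Immune receptors of the cell surface form a group of 9, all lower in footprints with LPS (median -1.98). HAVCR2 encodes TIM-3, an inhibitory receptor of T cells and myeloid cells. Its RNA was 103, 84.4, 128 and 119.6 CPM with vehicle, 21.0, 18.7, 24.6 and 21.8 CPM with LPS and 19.9, 16.4, 19.5 and 19.6 CPM with LPS+Dex. In footprints it was 158, 163, 165, 466 and 166 CPM, 29.0, 29.3, 30.4, 168 and 26.2 CPM and 35.1, 32.1, 32.7, 169 and 34.7 CPM, the high value of each treatment being library 4. The groups overlapped through those libraries alone, and the change was -1.98 ± 0.66 (SE) (adjusted p = 0.0198), against -2.51 (adjusted p = 3.43e-19) without them. CD180, a relative of Toll-like receptor 4 that restrains its signalling, had 25.8, 19.5, 31.9 and 33.2 RNA CPM with vehicle and 4.97, 4.60, 6.05 and 3.81 CPM with LPS. CD180 footprints were 36.5, 40.6, 40.1, 57.4 and 43.0 CPM with vehicle, 8.04, 6.96, 7.12, 12.2 and 4.48 CPM with LPS and 8.01, 9.38, 6.88, 20.6 and 7.32 CPM with LPS+Dex. Neither treated group reached the vehicle range, and the change with LPS was -2.49 ± 0.31 (SE) (adjusted p = 9.82e-06). VSIR, which encodes the inhibitory ligand VISTA, changed by -2.20, CD244, a receptor of the SLAM family, by -1.94, and EVI2B, a transmembrane protein of blood cells, by -2.18.

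SIGLEC11 and SIGLEC16 are neighbouring, closely related genes for sialic acid-binding receptors, the first inhibitory and the second activating. SIGLEC11 lies at chr19:49948985-49961172 and SIGLEC16 at chr19:49969664-49975814, 8.5 kb apart. Their promoter windows are shown because they share a near-identical stretch. SIGLEC11 is at chr19:49961123-49961422 on the minus strand and SIGLEC16 at chr19:49969414-49969713 on the plus strand of GRCh38.p14. Capitals mark that stretch, 211 bases of which 209 are identical (99.1%). It runs past the annotated start to the end of the SIGLEC11 window. In SIGLEC16 it opens the window and ends before the annotated start, so the starts themselves are not aligned.
SIGLEC11: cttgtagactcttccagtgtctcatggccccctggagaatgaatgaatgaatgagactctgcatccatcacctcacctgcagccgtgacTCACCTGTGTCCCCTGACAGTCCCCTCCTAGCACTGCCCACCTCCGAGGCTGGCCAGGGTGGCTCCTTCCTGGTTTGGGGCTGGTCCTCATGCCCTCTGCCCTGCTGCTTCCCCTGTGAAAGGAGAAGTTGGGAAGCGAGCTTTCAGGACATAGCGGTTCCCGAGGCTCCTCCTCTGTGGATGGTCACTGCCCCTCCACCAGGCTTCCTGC
SIGLEC16: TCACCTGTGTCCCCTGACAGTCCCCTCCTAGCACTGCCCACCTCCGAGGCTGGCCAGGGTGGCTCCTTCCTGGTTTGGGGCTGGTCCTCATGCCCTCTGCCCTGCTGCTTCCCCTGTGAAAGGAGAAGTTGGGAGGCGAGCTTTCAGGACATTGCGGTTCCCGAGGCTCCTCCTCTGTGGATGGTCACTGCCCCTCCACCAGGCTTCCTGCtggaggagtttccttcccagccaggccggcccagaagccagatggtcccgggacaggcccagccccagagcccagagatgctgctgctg
How reads that match both genes were counted is not given in the sources used here, so the split between them is uncertain. SIGLEC11 had 8.22, 7.22, 6.91 and 9.33 RNA CPM with vehicle and 1.33, 1.5, 1.01 and 1.47 CPM with LPS, and SIGLEC16 had 8.18, 8.75, 7.0 and 10.6 CPM and 0.576, 0.724, 0.871 and 0.822 CPM. In footprints SIGLEC11 was at 3.45, 3.23, 3.92, 2.89 and 4.04 CPM with vehicle and 0.596, 1.04, 0.496, 1.29 and 1.14 CPM with LPS, and SIGLEC16 at 2.18, 1.13, 1.39, 1.72 and 1.35 CPM and 0.596, 0.894, 0.405, 0.645 and 0.589 CPM. Both genes fell in footprints without overlap, by -1.95 ± 0.31 (SE) for SIGLEC11 (adjusted p = 9.84e-05) and -1.3 ± 0.24 (SE) for SIGLEC16 (adjusted p = 0.000276).

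TRAC, the constant region of the T cell receptor alpha chain, was among the members with the most RNA counts, although the T cell markers were near 0. Its RNA was 126, 119.7, 101 and 109 CPM with vehicle, 17.8, 19.8, 17.5 and 17.4 CPM with LPS and 18.5, 17.8, 17.4 and 14.7 CPM with LPS+Dex. Footprints of TRAC were 86.6, 88.2, 95, 72.6 and 95.2 CPM, 12.8, 15.1, 14.7, 17.0 and 11.6 CPM and 11.8, 14.4, 11.9, 10.5 and 10.8 CPM in that order. The treated libraries overlapped and all stayed far under vehicle, with a change of -2.62 ± 0.12 (SE) with LPS (adjusted p = 1.79e-10). TREML1, best known as a receptor of platelets, was another member with many RNA counts, 124, 152, 103 and 123 CPM with vehicle and 24.0, 33.5, 26.2 and 24.5 CPM with LPS. It had few footprints, 6.60, 8.40, 6.85, 6.95 and 6.86 CPM with vehicle and 3.28, 3.28, 3.51, 4.71 and 4.75 CPM with LPS, which did not overlap and differed by -0.86 ± 0.18 (SE) (adjusted p = 0.000899).

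A further 9 members are other receptors, channels and transporters, of which 8 fell in footprints (median -2.22). CNR1, the cannabinoid receptor 1, had RNA of 10.4, 15.2, 17.9 and 17.2 CPM with vehicle, 1.82, 0.982, 1.70 and 2.68 CPM with LPS and 2.02, 2.11, 2.11 and 2.44 CPM with LPS+Dex. Its footprints were 16.7, 13.7, 15.0, 75.7 and 19.3 CPM, 2.13, 1.19, 1.40, 12.7 and 2.83 CPM and 3.00, 3.39, 5.55, 16.1 and 2.44 CPM, library 4 being by far the highest in each. The change with LPS was -2.82 ± 0.76 (SE) (adjusted p = 0.00588), and the LPS libraries stayed below all vehicle libraries. SPNS2, which exports the lipid sphingosine 1-phosphate, changed by -2.22, CALHM2, of a family of calcium-regulated channels, by -2.90, and LRRC8C, a subunit of the volume-regulated anion channel, by -2.0. The receptor tyrosine kinase EPHB3 changed by -2.91 and the G protein-coupled receptor P2RY8 by -2.51. P2RY8 lies in the pseudoautosomal region, where the X and Y chromosomes carry the same sequence, so its count depends on how such reads were treated. Smaller changes were found for ASIC1, an acid-sensing sodium channel (-1.0 ± 0.21 (SE), adjusted p = 0.000813), and for KCNIP2, an accessory subunit of potassium channels (-0.78 ± 0.20 (SE), adjusted p = 0.00439).

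ADCY6, an adenylyl cyclase that makes cyclic AMP, was not called in footprints. Its RNA was 19.6, 20.5, 27.0 and 30.0 CPM with vehicle and 4.97, 5.22, 5.59 and 6.40 CPM with LPS. Its footprints were 9.68, 9.01, 7.98, 21.0 and 8.85 CPM with vehicle, 4.34, 4.52, 5.14, 16.5 and 4.83 CPM with LPS and 3.80, 3.75, 5.47, 17.6 and 4.68 CPM with LPS+Dex. In each treatment library 4 was at least 2 times the mean of the other libraries, and it brought the LPS group into the vehicle range. The change was -0.67 ± 0.50 (SE) (adjusted p = 0.278). With the replicate number as a block it was -0.80 (adjusted p = 8.67e-05), and without the libraries numbered 4 it was -0.92 (adjusted p = 1.59e-06), so that ADCY6 was called lower in both. Without LPS library 4 alone it was -1.25 and was called as well.

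**Figure D2:**
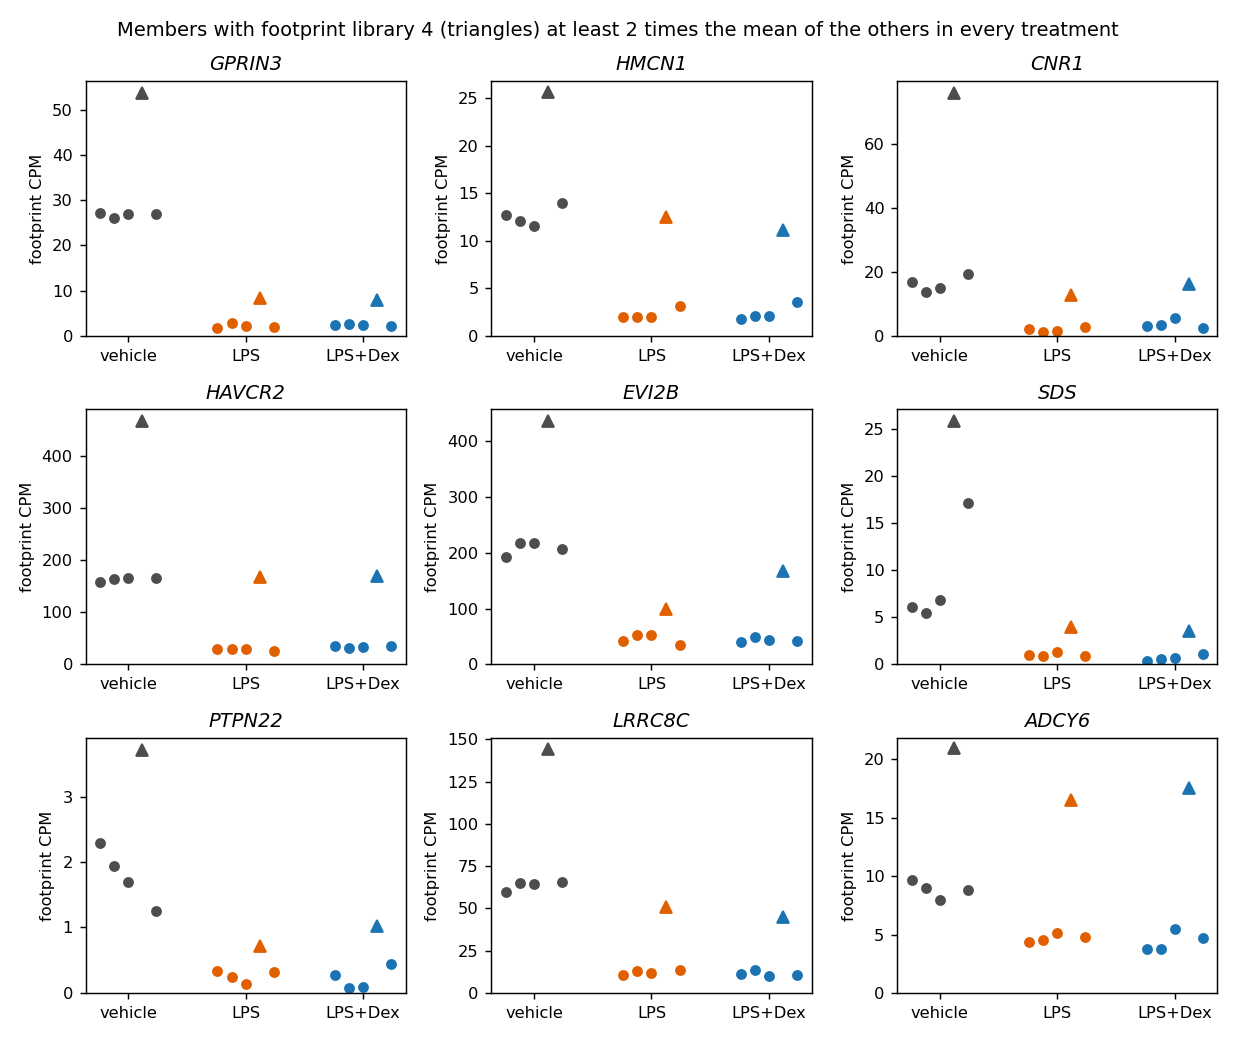
Footprint CPM on linear axes starting at 0 for the 9 members whose library numbered 4 (triangles) was at least 2 times the mean of the other 4 libraries (circles) in vehicle, LPS and LPS+Dex alike. In HAVCR2, HMCN1 and ADCY6 the LPS triangle reaches the vehicle circles, while the vehicle circles keep clear of the LPS and LPS+Dex circles in all 9 genes.

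Signalling adaptors and regulators of small GTPases are the largest group, with 15 members that all fell in footprints (median -2.87). PRAM1 (ENSG00000133246, chr19:8490056-8502640), an adaptor of myeloid cells, had the lowest RNA ratio of the set, 15.1-fold lower with LPS. Its RNA was 25.0, 23.9, 19.4 and 28.3 CPM with vehicle, 1.33, 0.879, 1.33 and 0.995 CPM with LPS and 1.21, 1.58, 1.3 and 1.68 CPM with LPS+Dex. Footprints were 6.28, 4.93, 6.52, 7.71 and 7.63 CPM, 0.553, 0.646, 0.451, 1.23 and 0.354 CPM and 1.16, 0.838, 0.994, 0.817 and 1.22 CPM in the same order. Both treated groups stayed below vehicle in each assay, and the footprint change with LPS was -3.39 ± 0.27 (SE) (adjusted p = 7.92e-08). RAB11FIP4 (ENSG00000131242, chr17:31391675-31538211) is an effector of Rab11, the GTPase of recycling endosomes. It had 29.0, 25.3, 33.6 and 40.3 RNA CPM with vehicle and 2.31, 2.38, 3.21 and 2.34 CPM with LPS. In footprints it was 20.1, 18.2, 18.2, 30.5 and 25.3 CPM with vehicle, 1.75, 1.49, 2.12, 3.16 and 2.04 CPM with LPS and 1.72, 1.80, 1.49, 1.63 and 2.29 CPM with LPS+Dex. No treated library came near the lowest vehicle one, and the change with LPS was -3.42 ± 0.21 (SE) (adjusted p = 5.56e-09).

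ITPKB (ENSG00000143772, chr1:226631690-226739282), a kinase that turns inositol trisphosphate into inositol tetrakisphosphate, had the largest footprint fall of the tested members, next to that of SEMA3G. Its RNA was 21.0, 17.0, 31.7 and 38.0 CPM with vehicle, 2.31, 1.81, 2.34 and 2.25 CPM with LPS and 2.52, 1.72, 2.11 and 2.0 CPM with LPS+Dex. Footprints were 18.1, 15.7, 15.7, 26.5 and 21.9 CPM, 1.66, 0.944, 1.22, 1.55 and 1.73 CPM and 1.88, 1.92, 1.16, 1.84 and 1.37 CPM. The 2 treated groups overlapped and were far under vehicle, and the footprint change was -3.77 ± 0.21 (SE) with LPS (adjusted p = 1.76e-09) and 0.22 ± 0.22 (SE) for LPS+Dex against LPS (adjusted p = 0.610). GPRIN3, of a family of G protein-regulated inducers of neurite outgrowth, had RNA of 5.29, 5.36, 17.2 and 13.6 CPM with vehicle and 0.798, 0.414, 0.779 and 0.779 CPM with LPS. Its footprints were 27.2, 26.0, 27.0, 53.7 and 26.9 CPM with vehicle and 1.66, 2.78, 2.21, 8.45 and 1.96 CPM with LPS. Library 4 was the highest in both, yet the groups did not overlap, and the change was -3.27 ± 0.49 (SE) (adjusted p = 4.66e-05).

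Several members of this group act on Ras, Arf, Rab or other small GTPases. The footprint change with LPS was -3.28 for RIN1, a Ras effector that activates Rab5, -3.13 for RHOBTB2, an atypical GTPase, and -2.87 for RTKN, which encodes rhotekin. It was -2.52 for FGD3, an exchange factor of Cdc42, -2.52 for IQSEC2, an exchange factor of Arf proteins, and -2.45 for the Ras-like DIRAS1. DOK2, an adaptor that damps tyrosine kinase signalling, had 179, 176, 146 and 144 RNA CPM with vehicle and 28.9, 30.3, 24.5 and 20.7 CPM with LPS, and its footprints changed by -2.70 ± 0.22 (SE) (adjusted p = 8.97e-08). The adaptor SH2D3C changed by -3.09, APBB1IP, which links Rap1 to integrin activation, by -1.79, and PTPN22, a phosphatase of immune receptor signalling, by -2.65. NISCH, which encodes the integrin-binding protein nischarin, had the most RNA counts of any member, 561, 609, 499 and 515 CPM with vehicle, 138, 144, 126 and 121 CPM with LPS and 138, 160.0, 158 and 154 CPM with LPS+Dex. NISCH footprints were 129, 113, 120.0, 93.1 and 103 CPM, 32.0, 31.4, 31.1, 27.6 and 34.1 CPM and 46.3, 41.0, 48.3, 40.4 and 37.2 CPM, so that vehicle lay clear of LPS and the LPS+Dex libraries all lay above the LPS ones. The change with LPS was -1.83 ± 0.10 (SE) (adjusted p = 9.39e-10).

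Of 8 cytoskeletal members, 7 were tested in footprints and 6 fell (tested median -2.63). The largest change was that of CORO2A, an actin-binding coronin, at -3.46 ± 0.38 (SE) (adjusted p = 2.13e-06), with 6.57, 5.33, 6.10, 13.1 and 8.37 footprint CPM with vehicle and 0.511, 0.646, 0.496, 1.61 and 0.432 CPM with LPS. PSRC1, a spindle protein, changed by -3.19, MYBPH, a myosin-binding protein, by -2.63, and FRMD4A, a scaffold of epithelial polarity, by -2.64. TACC2, a centrosomal protein that binds microtubule regulators, changed by -2.15, and the intermediate filament protein INA by -2.07. PPFIA4, a liprin, was not called: its 17.9, 27.0, 24.9 and 27.9 RNA CPM with vehicle came with 0.943, 0.606, 0.678, 0.206 and 0.738 footprint CPM, against 0.468, 0.149, 0.270, 0.323 and 0.589 CPM with LPS. The footprint groups of PPFIA4 overlapped, with a change of -0.82 ± 0.41 (SE) (adjusted p = 0.107). It was called at -0.97 (adjusted p = 0.0402) without the libraries numbered 4, and at -0.995 without vehicle library 4 alone. KIF25, a kinesin, had RNA of 6.46, 6.97, 3.96 and 5.60 CPM with vehicle and 0.754, 0.620, 0.733 and 1.08 CPM with LPS, and had too few footprints for a test.

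All 7 metabolic enzymes fell in footprints with LPS. FUT7, the fucosyltransferase that completes selectin ligands, had the largest change, -3.13 ± 0.31 (SE) (adjusted p = 7.25e-07), from 5.62, 6.30, 5.54, 4.88 and 4.88 CPM with vehicle to 0.298, 0.547, 0.405, 1.36 and 0.589 CPM with LPS. SDS, which breaks down serine, changed by -2.97, TMEM86A, which hydrolyses lysoplasmalogens, by -2.59, and PDK2, which inhibits pyruvate dehydrogenase, by -2.47. GALM, a sugar mutarotase, changed by -2.22, the lysosomal phospholipase PLA2G15 by -2.21, and PLB1, another phospholipase, by -1.91.

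The 4 secreted proteins had the lowest RNA ratios by role, judged by the median, and were 7.83- to 11.8-fold lower. SEMA3G (ENSG00000010319, chr3:52433035-52445103), a class 3 semaphorin, had RNA of 9.31, 9.20, 13.1 and 12.7 CPM with vehicle, 0.621, 0.362, 0.458 and 0.476 CPM with LPS and 0.303, 0.383, 0.866 and 0.867 CPM with LPS+Dex. Its footprints were 10.8, 8.24, 9.08, 7.98 and 7.67 CPM, 0.553, 0.497, 0.766, 0.774 and 0.629 CPM and 0.801, 1.12, 1.16, 1.77 and 0.732 CPM. Treated libraries all lay below vehicle, and the footprint change with LPS was -3.76 ± 0.23 (SE) (adjusted p = 3.93e-09). PROC, the precursor of the anticoagulant protease protein C, had 11.6, 11.7, 7.60 and 9.47 RNA CPM with vehicle and 0.488, 0.931, 0.596 and 0.519 CPM with LPS. Footprints of PROC were 4.21, 3.31, 2.30, 1.58 and 3.37 CPM and 0.213, 0.298, 0.496, 0.0645 and 0.354 CPM, which did not overlap, with a change of -3.31 ± 0.45 (SE) (adjusted p = 1.9e-05). LGI2, a leucine-rich repeat protein, changed by less, -2.28 ± 0.32 (SE) (adjusted p = 2.42e-05), with 21.2, 20.3, 21.5, 17.0 and 22.4 footprint CPM with vehicle and 2.64, 2.88, 3.02, 6.58 and 5.97 CPM with LPS.
HMCN1, the matrix protein hemicentin 1, had 12.7, 12.1, 11.6, 25.6 and 14.0 footprint CPM with vehicle and 2.04, 2.04, 2.03, 12.5 and 3.14 CPM with LPS. LPS library 4 alone reached the vehicle range, and the change was -1.82 ± 0.60 (SE) (adjusted p = 0.0187), or -2.44 (adjusted p = 3.88e-11) without the libraries numbered 4.
The 5 members left all fell as well, from -3.44 for SUSD3, a sushi domain protein, to -1.01 for VWA5A, with PGBD5, derived from a transposase, at -2.81 and C1orf127 at -2.15. C1orf127 had few footprint counts with LPS (4, 9, 4, 0 and 4). Its groups overlapped, with 0.447 CPM in LPS library 2 and 0.206 CPM in vehicle library 4. DOP1B, a protein of endosomal traffic with many RNA counts (218, 228, 267 and 304 CPM with vehicle and 56.6, 51.6, 57.0 and 67.0 CPM with LPS), changed by -1.56 ± 0.12 (SE) (adjusted p = 5.16e-08).

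**Figure D3:**
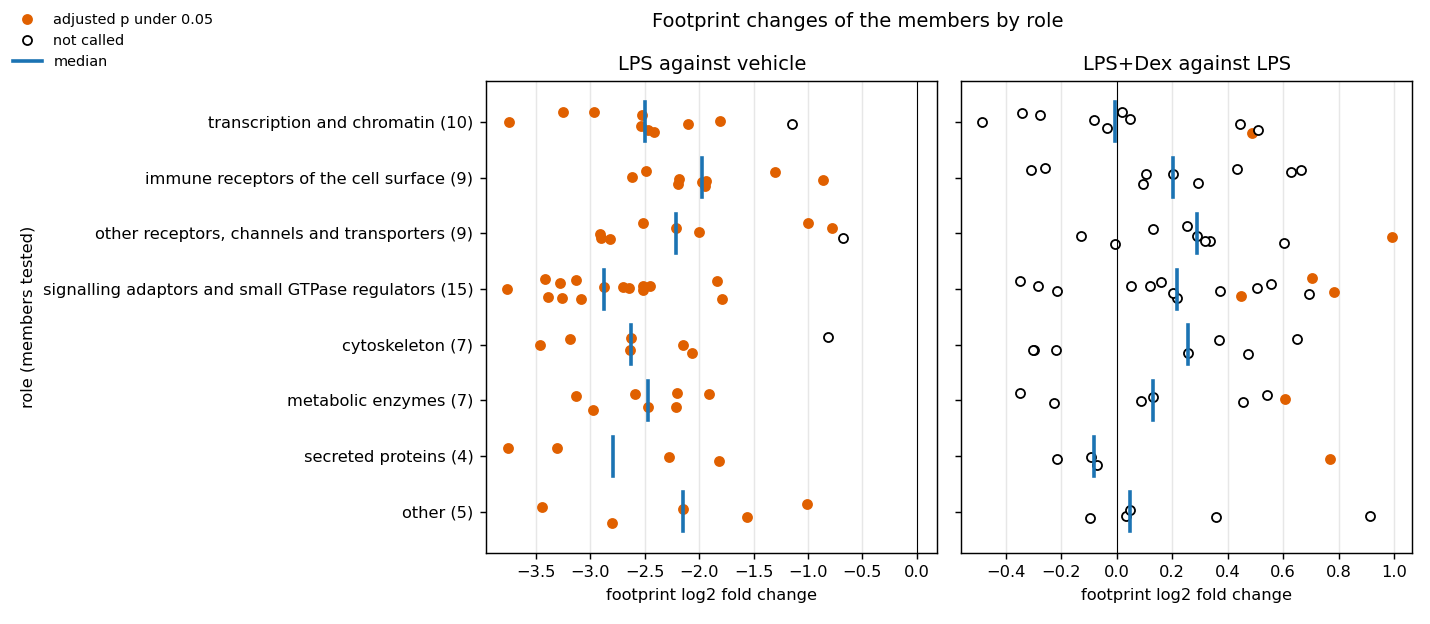
Footprint log2 fold change of each tested member by role, for LPS against vehicle on the left and LPS+Dex against LPS on the right. Filled points have an adjusted p under 0.05, open points do not, and bars mark the median of a role. On the left every point lies below 0 and 3 are open, and on the right 7 points are filled, all above 0.

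Footprints and RNA fell by similar amounts in most members but not in all. The footprint change minus the RNA change, from 1 model over both assays, had a median of 0.13 over the 67 members and of 0.02 over 13679 genes, and 43 members were above 0. RNA chose the members and high vehicle or low LPS RNA values favour a gene's choice, so these differences are a description. Across 66 members the RNA and footprint changes correlated with Pearson r = 0.55 and a Spearman coefficient of 0.55, with each library shared by all points. The choice bounded the RNA change, and no coefficient over all genes is given, so these values do not show how closely footprints follow RNA. In 10 members the footprints fell by at least 1 log2 unit less than the RNA. The shares of all genes with a difference above 0 or of at least 1 were not counted. The widest difference was that of SIGLEC16 (2.24), followed by PPFIA4 (1.92), SP140 (1.55), HMCN1 (1.5) and ADCY6 (1.47). KCNIP2 (1.43), TREML1 (1.37), VWA5A (1.28), ASIC1 (1.28) and PRAM1 (1.02) made up the 10. The value of SIGLEC16 depends on the uncertain split of reads between it and SIGLEC11. Few LPS footprint counts stand behind SP140 (3, 1, 8, 3 and 12), PPFIA4 (11, 3, 6, 5 and 15) and, outside the 10, C1orf127 (4, 9, 4, 0 and 4). Without the footprint libraries numbered 4, HMCN1 (0.94) and PRAM1 (0.78) were below 1, C1orf127 (1.06) was above it, and the other 8 stayed above it. These genes were mostly thin in footprints to begin with. Footprint CPM per RNA CPM with vehicle was under 0.5 in 8 of the 10 and in 30 of the 67, with a median of 0.227 in the 10 and 0.727 in the other members. TREML1 had a ratio of 0.0569 with vehicle and 0.144 with LPS, and PPFIA4 had 0.0260 and 0.0973. Across the 67 members that ratio and the difference correlated with a Pearson r of -0.40 and a Spearman coefficient of -0.23. Both quantities hold the vehicle libraries, so part of that relation is built in.

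In the other direction RTKN (-0.64), SUSD3 (-0.61), RIN1 (-0.60), PSRC1 (-0.60) and CALHM2 (-0.58) lost more in footprints than in RNA. RTKN had 15.1, 15.8, 11.4 and 13.7 RNA CPM with vehicle and 3.77, 3.46, 2.66 and 2.34 CPM with LPS, against 6.57, 4.77, 7.04, 6.12 and 7.38 and 1.32, 0.994, 0.586, 0.645 and 0.747 footprint CPM. RIN1 had 101, 100.1, 74.9 and 91.8 RNA CPM and 15.4, 17.2, 15.1 and 10.8 CPM, against 42.0, 38.2, 34.6, 51.4 and 44.6 and 4.98, 3.73, 3.33, 5.94 and 3.73 footprint CPM. In both genes the vehicle and LPS libraries were clear of each other in each assay.

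**Figure D4:**
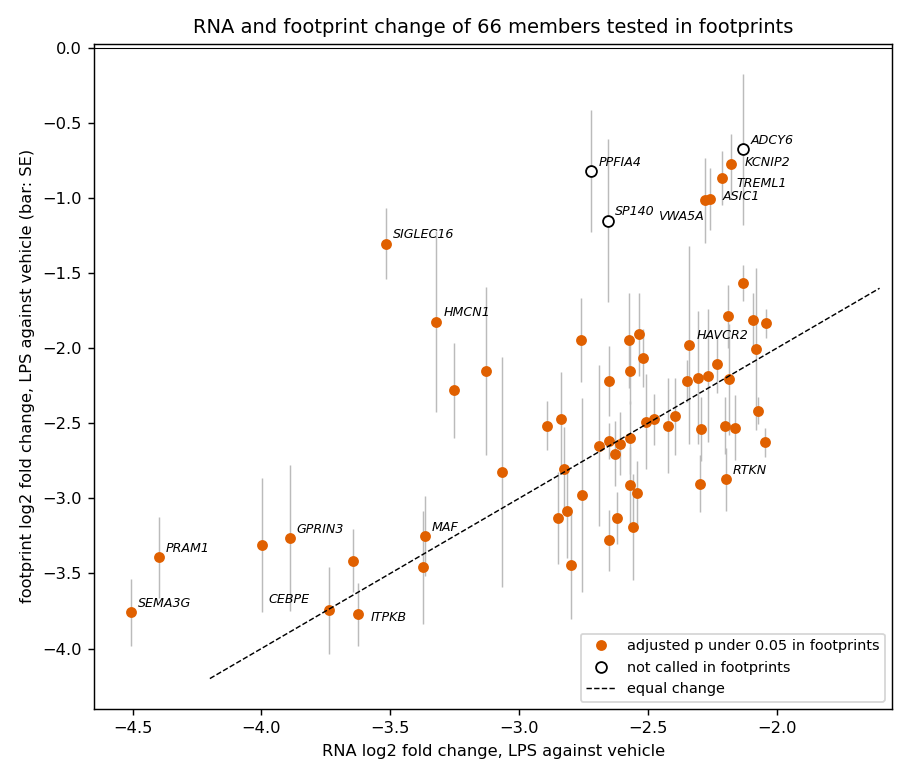
Footprint log2 fold change with LPS against vehicle (bars, SE) plotted against the RNA log2 fold change for the 66 members tested in footprints. The dashed line marks equal change. Most points lie near the line, the 3 members not called in footprints (open) lie well above it, and SIGLEC16 lies farthest above it. The split of reads between SIGLEC16 and SIGLEC11 is uncertain.

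Dexamethasone on top of LPS left most of the members' footprints without a called change. With LPS+Dex against LPS, 7 of 66 members were higher and none was lower by edgeR's test, and 1, TRAC, was lower at an unadjusted p under 0.05. DESeq2 called 8 higher and none lower. By edgeR's test the share higher was near that of all genes, of which 9.08% were higher and 7.99% lower, while no member was lower. A member that missed the threshold is not thereby shown to be equal in both treatments. The members' median change was 0.18, from -0.49 to 0.99, beside 0.02 over all genes. The change was above 0 in 45 of 66 members, a share not counted over all genes. By size, 44 of 66 members had a footprint ratio within the 0.77 to 1.3 used for RNA, and so had 71.9% of all genes. With the replicate number as a block 14 of 66 members were higher and none was lower (16.1% and 14.8% of all genes). The block added CNR1 (0.70, adjusted p = 0.021), RIN1 (0.55, adjusted p = 0.000726), INA (0.37, adjusted p = 0.0135), RREB1 (0.49, adjusted p = 0.0183), PLA2G15 (0.53, adjusted p = 0.00463), MRTFB (0.44, adjusted p = 0.00696) and VSIR (0.60, adjusted p = 0.0237). Without the libraries numbered 4, 17 of 66 members were higher and none was lower, beside 16.2% of all genes higher. Leaving out single libraries gave 4 to 11 members higher. With the block and without the libraries numbered 4, the members' share higher was above that of all genes. Their medians were 0.17 and 0.21, beside 0.01 over all genes in each. These differences were not tested.

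P2RY8, a receptor of B cells and other leukocytes, had the largest of the called rises. Its footprints were 4.60, 4.02, 2.34, 5.87 and 3.03 CPM with LPS and 5.65, 5.15, 7.29, 15.7 and 5.76 CPM with LPS+Dex, groups that overlapped, and 25.1, 19.5, 22.1, 27.9 and 18.5 CPM with vehicle. The rise was 0.99 ± 0.32 (SE) (adjusted p = 0.0428), and it was not called without vehicle library 1 or 3, LPS library 1, 2, 3 or 5, or LPS+Dex library 3 or 4, where it was 0.58 to 1.05, with 0.58 in the absence of LPS+Dex library 4. IQSEC2 had 1.53, 1.84, 1.67, 1.68 and 2.04 footprint CPM with LPS and 2.64, 2.91, 3.07, 2.52 and 3.95 CPM with LPS+Dex. All LPS+Dex libraries were above all LPS ones, 0.78 ± 0.17 (SE) higher (adjusted p = 0.00361), and still far under the 10.9, 9.90, 10.8, 6.95 and 11.8 CPM of vehicle. SEMA3G rose by 0.77 ± 0.24 (SE) (adjusted p = 0.0403) and RTKN, with 1.28, 1.36, 1.24, 1.77 and 1.41 CPM with LPS+Dex, by 0.70 ± 0.22 (SE) (adjusted p = 0.0399). Both lost the call without the libraries numbered 4 (adjusted p = 0.0771 for SEMA3G and 0.108 for RTKN). The call of SEMA3G was also lost without vehicle library 3, LPS library 1, 2 or 5, or LPS+Dex library 2, 3 or 4 (0.55 to 0.77). That of RTKN was lost without vehicle library 1 or 3, any of LPS libraries 2 to 5, or any 1 LPS+Dex library (0.59 to 0.76). PDK2 went from 2.81, 2.53, 1.49, 2.39 and 2.75 CPM with LPS to 3.64, 3.07, 4.06, 3.67 and 3.85 CPM with LPS+Dex, with no overlap, a rise of 0.61 ± 0.17 (SE) (adjusted p = 0.0242). It was not called without LPS+Dex library 3 (0.57) or 5 (0.58). NISCH and ZMYM3, the other two, rose by 0.45 ± 0.09 (SE) (adjusted p = 0.00346) and 0.49 ± 0.09 (SE) (adjusted p = 0.00119), each without overlap. The RNA ratios of these genes, within the bounds by choice, were 1.11 for P2RY8, 1.29 for IQSEC2, 1.13 for SEMA3G, 1.28 for RTKN, 1.3 for PDK2, 1.15 for NISCH and 1.17 for ZMYM3.

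The other genes lowered 4-fold by LPS had been set apart by their RNA with dexamethasone. Their footprints are given side by side, with no test between the sets. Calls are those of edgeR's test, by which 9.08% of all genes were higher with LPS+Dex against LPS and 7.99% lower. Of 51 genes above the upper bound and not left out by symbol, 30 were higher in footprints with LPS+Dex against LPS and none was lower, with a median of 0.90. Of 12 genes below the lower bound, 6 were lower and none was higher, with a median of -0.42. With LPS against vehicle 50 of the 51 and 11 of the 12 were lower in footprints (27.2% of all genes), with medians of -2.26 and -2.32.

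With LPS+Dex the members' footprints stayed under vehicle. In this comparison 64 of 66 were lower and none was higher (22.0% and 24.4% of all genes), the median was -2.19, and 56 members had every LPS+Dex library below every vehicle one, against 14.8% of all genes. The members not called were ADCY6 (-0.68 ± 0.50 (SE), adjusted p = 0.294) and KCNIP2 (-0.46 ± 0.20 (SE), adjusted p = 0.0747). Without the libraries numbered 4 all 66 tested members and 31.6% of all genes were lower. This comparison shares its vehicle libraries with that of LPS and vehicle, and its LPS+Dex libraries with that of LPS+Dex and LPS.

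Relatives of the members did not move as one. The share of all genes lower in RNA with LPS was 33.6% and the share higher 28.6%. Among 46 tested enzymes of inositol phosphate and phosphoinositide metabolism other than ITPKB, 22 fell and 13 rose in RNA with LPS. INPP5D, the phosphatase SHIP1, changed by -2.18 in RNA and -1.99 in footprints. Of 37 Rab11 effectors and endosomal recycling genes other than RAB11FIP4, 10 fell and 12 rose. Its relative RAB11FIP5 changed by -1.53 in RNA, while EHD1, a recycling endosome ATPase, changed by 3.25. Of 37 semaphorins, plexins, neuropilins and ephrin genes other than SEMA3G and EPHB3, 14 fell and 14 rose. Of 39 microtubule-associated proteins other than TACC2, 17 fell and 9 rose. Further groups were formed by symbol alone. Of these, kinesins other than KIF25 fell in 22 of 35 cases and rose in 4. They include the mitotic motors KIF20A (RNA change -2.01), KIF18A (-1.96) and KIF11 (-1.24). The kinesins KIF21A (1.14) and KIF1B (0.61) rose. In the families of other members, protein tyrosine phosphatases other than PTPN22 fell in 15 and rose in 7 of 29 cases, potassium channels and their subunits other than KCNIP2 fell in 18 and rose in 12 of 44, and TMEM proteins other than TMEM86A fell in 64 and rose in 39 of 167. Families with no member were run too. ADAM and ADAMTS proteases fell in 16 and rose in 4 of 29 cases, Kelch-like adaptors in 14 and 3 of 29, and ABC transporters in 16 and 7 of 30. TBC1D proteins fell in 13 and rose in 10 of 30, DENN proteins in 7 and 3 of 16, and phosphodiesterases in 6 and 5 of 14. TRIM ligases fell in 15 and rose in 16 of 44, F-box proteins in 13 and 11 of 52, ubiquitin-specific proteases in 12 and 17 of 50, and lysine demethylases and methyltransferases in 8 and 9 of 26.

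MEF2 factors and class II histone deacetylases, a list with no member, fell in 7 of 10 cases in RNA and 6 of 9 in footprints with LPS, and none rose. HDAC5, which misses the RNA bound by the smallest margin, changed by -2.003 in RNA and -2.56 in footprints. HDAC7 changed by -0.85 in RNA and -1.70 in footprints, and MEF2D by -0.74 and -1.03. With LPS+Dex against LPS, 4 of the 10 fell in RNA and none rose, beside 15.4% and 15.5% of all genes, although the median of the 10 was above 0, at 0.10. Of the remaining pathway lists, diacylglycerol kinases and phospholipases C fell in 11 and rose in 6 of 19 cases in RNA with LPS. TGF-beta and SMAD genes fell in 14 and rose in 11 of 36, lipid- and peptide-sensing receptors fell in 20 and rose in 18 of 49, Notch genes fell in 11 and rose in 12 of 30, and FOXO-linked growth-arrest genes fell in 10 and rose in 13 of 33.

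The members lie on 18 chromosomes, with 10 on chromosome 1 and 7 each on chromosomes 9 and 10. In 7 pairs the genes are less than 1 Mb apart. Besides the SIGLEC pair, SEMA3G and NISCH are 10.5 kb apart on chromosome 3, FGD3 and SUSD3 22.5 kb apart on chromosome 9, and EVI2B and RAB11FIP4 77.6 kb apart on chromosome 17. PPFIA4 and MYBPH are 89.1 kb apart on chromosome 1, INA and CALHM2 156.4 kb on chromosome 10, and TRAC and CEBPE 565.2 kb on chromosome 14. The median gene span was 27.5 kb in the 67 members and 30.3 kb in 13132 tested genes.

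Promoter sequences of RefSeq (GRCh38.p14) were found for 54 members, with 89 promoters, and were set beside 34796 promoters of the same length. Their median GC content was 63.7% against 58.7%. Motifs were searched as letters on both strands, N standing for any base, and those longer than 8 letters are given by name only. AP-1 (TGANTCA) stood in 10.1% of the members' promoters and 7.73% of all, NF-κB in 5.62% and 1.60%, and the GC box (GGGCGG) in 56.2% and 44.9%. The E-box (CACGTG) stood in 10.1% and 7.20%, and the CCAAT box (CCAAT) in 32.6% and 34.6%. C/EBP (TTNCNNAA) stood in 24.7% and 36.9%, CREB (TGACGTCA) in 2.25% and 1.84%, and the TATA box (TATAAA) in 4.49% and 11.6%. PU.1 (GAGGAAGT) stood in 4.49% and 2.60% and the related ETS motif (CCGGAAGT), which shares GGAAGT with it, in 1.12% and 4.13%. FOXO (GTAAACA) stood in 1.12% and 3.42%. The interferon regulatory factor motif and that of the glucocorticoid receptor were in none of the members' windows and in 3.57% and 2.37% of all. Among 89 windows such shares come to only a few, and the absence was not tested. The 5 members with the NF-κB letters were ASIC1, FUT7, LRRC8C, RTKN and TACC2. CD180 is 1 of 9 members with the AP-1 letters. It alone has T at the N (TGATTCA), where the others have C or G, so its match rests on N standing for any base. Binding to these letters was not tested. Its window at chr5:67196750-67197049 on the minus strand is shown, with these letters in capitals, as the case of a restrainer of Toll-like receptor 4 signalling.
CD180: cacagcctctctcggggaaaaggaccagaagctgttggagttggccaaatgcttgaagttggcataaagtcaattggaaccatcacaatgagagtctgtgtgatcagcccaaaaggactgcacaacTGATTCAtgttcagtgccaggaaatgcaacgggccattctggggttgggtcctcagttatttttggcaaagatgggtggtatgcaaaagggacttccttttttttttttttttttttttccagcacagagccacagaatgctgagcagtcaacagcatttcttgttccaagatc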

How the data were processed

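The authors deposited raw counts per gene, 1 table for RNA-seq (12 libraries) and 1 for footprints (15 libraries). The submitters' processing notes name DESeq2 1.26.0, featureCounts 2.0.1 and STAR 2.7.10a for both assays, Bowtie2 2.4.5 for footprints alone, and the build GRCh38. Which feature was counted, which strand setting was used and how reads with many matches were handled is not given in the sources used here. From the deposited counts, CPM were computed on TMM sizes over all rows and the members chosen as described above. Tests used edgeR 4.0.16 (R 4.3.3) on these counts (filterByExpr with minimum count 10 and total 15, TMM, quasi-likelihood F test, 2-sided, Benjamini-Hochberg over all genes, called at adjusted p under 0.05), each assay fitted over its 3 treatments. The code was tested on simulated data. The labels do not state whether replicates are separate cultures, so a p-value reflects the spread among these samples alone, which may be technical.

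Deviations from the treatment means correlated above 0.1 in 15 of 15 pairs of equally numbered footprint libraries (34 of 60 unequally numbered), so a fit with the replicate number as a block was run beside the main one. In RNA this held in 7 of 12 pairs. Members and lists were chosen with earlier results of these data known, and the 8 roles were assigned after the members had been seen. Genes were named by rank (the 12 lowest RNA ratios, 8 highest vehicle RNA levels, 5 highest and lowest footprint minus RNA changes, 5 largest called dexamethasone changes), for missing the footprint call, for a place on a list or for lying next to a bound. Other members were named after their values were seen, to describe each role. The alternatives were DESeq2's size factors, DESeq2 itself, no low-count filter, the block, each library left out in turn, and other bounds of the choice. Coordinates, promoters and gene spans are RefSeq's for GRCh38.p14, matched by symbol. One gene next to a bound of the choice is not reported here.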

Additional observations from a re-analysis of the deposited data

Results flagged for a closer look

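Members named by rank, missed footprint call, list or bound were screened. In them, 34 of 234 groups of 4 or 5 libraries had 1 library far from the others. Chance alone flags about 1 in 20 if values are independent and normally distributed. These values are CPM from libraries shared by all genes, so that rate is only a rough guide. Most of the flagged libraries are footprint libraries numbered 4. Other members, such as HAVCR2, SDS and LRRC8C, were not screened. Footprint library 4 of LRRC8C had 144 CPM with vehicle (others 59.4 to 65.8) and 51.0 CPM with LPS (others 10.3 to 13.3). GPRIN3 had 53.7 CPM in vehicle library 4 (next 27.2), 8.45 CPM in LPS library 4 (next 2.78) and 7.89 CPM in LPS+Dex library 4 (next 2.71). HMCN1 had 25.6, 12.5 and 11.2 CPM there, in the same order, with 14.0, 3.14 and 3.56 CPM next. CNR1 had 75.7, 12.7 and 16.1 CPM (next 19.3, 2.83 and 5.55). EVI2B had 436, 99.4 and 167 CPM (next 217, 52.1 and 49.7). ADCY6 had 21.0, 16.5 and 17.6 CPM (next 9.68, 5.14 and 5.47).

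Other screened members had 1 or 2 such groups. Vehicle library 4 was high in footprints of CALHM2 (29.0 CPM, next 21.7) and FRMD4A (79.7, next 56.7). It was low for NFATC1 (36.8, next 72.9), PSRC1 (3.03, next 5.53), PDK2 (9.43, next 14.0) and TACC2 (9.29, next 11.7). LPS library 4 was high for CORO2A (1.61 CPM, next 0.646). LPS+Dex library 4 was high for LGI2 (7.01, next 3.51), FGD3 (29.9, next 19.2) and P2RY8 (15.7, next 7.29). Vehicle library 2 was high for TREML1 footprints (8.40 CPM, next 6.95).

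In RNA, LPS library 3 was high for RAB11FIP4 (3.21 CPM, next 2.38) and FRMD4A (20.4, next 17.8). LPS library 2 was low for ITPKB (1.81 CPM, next 2.25) and GPRIN3 (0.414, next 0.779) and high for TRAC (19.8, next 17.8). Vehicle library 1 was high for NFATC1 (134 CPM, next 123). LPS+Dex library 4 was low for EVI2B (53.2 CPM, next 57.2) and LPS+Dex library 3 high for ZMYM3 (15.7, next 14.2). No cause of these gaps was tested.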

How the results depend on the processing

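The 63 members lower in footprints with LPS became 62 to 65 when single libraries were left out, and the 64 lower with LPS+Dex than with vehicle became 60 to 66. The median change with LPS was then -2.68 to -2.44. DESeq2's size factors, DESeq2 and no low-count filter kept these counts within 1.5 times. No called change of a member named by rank, missed call, list or bound turned in sign. With LPS+Dex against LPS, changes that were not called turned in sign in 8 members without the libraries numbered 4, among them CEBPE (-0.04 to 0.24), and in 1 with the block. DESeq2 gave no adjusted p for HMCN1, LRRC8C and HAVCR2. The 7 members higher with LPS+Dex than with LPS depended most on the setting: 14 with the replicate block, 17 without replicate 4 in all groups, 11 without LPS replicate 4, and 4 without vehicle replicate 3, LPS replicate 2, LPS replicate 5 or LPS+Dex replicate 3 (4 to 17 over all that leave out libraries). The cause was not tested. The median change over all tested members, 0.18, was 0.072 to 0.33 without single libraries, 0.33 being without LPS replicate 4. The block changed no other count by over 1.5 times; among the LPS calls it added that of ADCY6. The choice itself gave 106 members on plain library totals (63 shared), which give all genes a median LPS change of -0.32 in RNA and -0.47 in footprints (-0.05 and -0.04 on TMM sizes), 112 with a bound of 0.3, 34 with 0.2, 57 with an offset of 1 CPM (53 shared), 66 with 0.1 (57 shared), 61 with DESeq2's size factors, 47 with dexamethasone bounds tightened on both sides, and 63 to 70 without single RNA libraries. At this depth KIF25 had too few footprints for a test, and the standard errors of SP140 and PPFIA4 were 0.54 and 0.41. One alternative, each member's footprint minus RNA change without the libraries numbered 4, was chosen after seeing the data.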
